A study of Bos taurus with 6 samples.

Results

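Antigen presentation was examined in primary bovine vaginal epithelial cells (BVECs) through 10 genes of the MHC class I and class II routes, which were CD74, CIITA, B2M, TAP1, TAP2, TAPBP, TAPBPL, NLRC5, ERAP1 and BOLA-DRA. The genes were set by name. Of the 18014 features in the expression table, 8 carried the exact symbol of a gene in this set. TAP2 was found in a feature that joins it with another Ensembl gene, and the DR alpha chain gene BOLA-DRA was found through its description, under the name BoLA DR-ALPHA, so all 10 genes had a value. The cells came from vaginal tissue of healthy young cows. In the treated group, confluent cells were kept for 4 h with 1 ml of a suspension of the Lactobacillus strain SQ0048 (1000000000 CFU/ml) and then washed, and in the control group cells received DMEM-F-12 medium in the same way. Each group had 3 libraries, described in the study as biological replicates without a statement that they came from separate cultures or animals, so the p-values measure only the spread between these libraries, which may be technical.

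MHC class I molecules show peptides from inside the cell to T cells, and nearly all nucleated cells carry them. The proteasome cuts the peptides, the transporter made of TAP1 and TAP2 moves them into the endoplasmic reticulum, the aminopeptidase ERAP1 trims them, and the chaperone tapasin (TAPBP) and its relative TAPBPL help load them onto a heavy chain paired with beta-2-microglobulin (B2M). NLRC5 is the transactivator of class I genes. MHC class II molecules show peptides from the endosomes and belong mainly to professional antigen-presenting cells, although epithelial cells can make them under interferon gamma. CD74, the invariant chain, guards the class II groove on the way to the endosome, the DR alpha chain is a subunit of the class II molecule, and CIITA is the master transactivator of class II genes. The comparison of treated with control cells asked which of these genes differed after 4 h with the bacteria.

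Of the 10 genes, TAPBPL rose, CIITA fell and the other 8 passed the test in neither direction. The values are FPKM, in which fragment counts are divided by exon length and by library size, and were tested as log2(FPKM + 0.1) with limma over the 13144 features whose mean reached 0.5 FPKM. Rises and falls named here had an adjusted p under 0.05. Over all tested features, 24.4% were called, 8.59% higher and 15.8% lower, so 2 calls among 10 genes is a share near that background. The groups did not overlap in 3 of the 10 genes that were higher (TAPBPL, NLRC5 and TAPBP) and in 1 that was lower (CIITA), against 17.4% and 28.3% of all tested features and 45.7% in either direction. By limma, TAPBPL and CIITA met the study's own thresholds, a fold of 2 or more and an unadjusted p below 0.05. They were met by 5.52% of all tested features. The study applied these thresholds to its own edgeR results and lists CD74 as upregulated, with a similar trend in its RT-qPCR. The median log2 fold change was 0.07 over the 10 genes and -0.08 over all tested features.

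**Figure D1:**
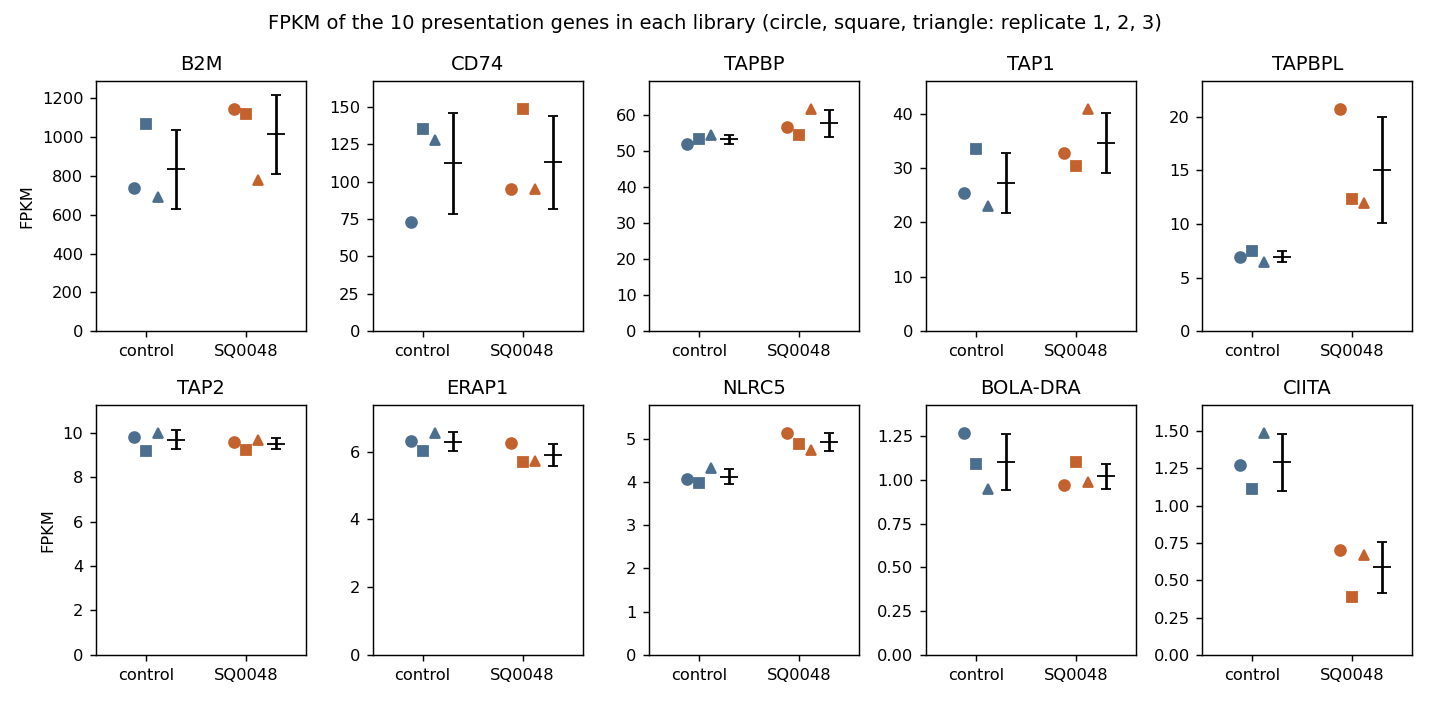
FPKM of each of the 10 genes (vertical axis from 0, a scale of its own in each panel) in the 3 control and the 3 SQ0048-treated libraries. Circles, squares and triangles are replicates 1, 2 and 3, and the bar beside them is the mean with its SD. TAPBPL lies between 6.44 and 7.48 FPKM in untreated against 12.0 and 20.7 FPKM in treated cells, CIITA is lower in each treated library, and B2M, CD74 and TAP1 overlap widely.

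The data behind these values were checked briefly. The FPKM of a library summed to 343933 to 361055 in the control group and to 372034 to 378772 in the treated group, and the values are rounded to 2 decimals with no counts beside them. The study gives read numbers per group, which its summary heads as means, but the depth of each library is not known here. KRT18, the cytokeratin by which the cells were identified, stood at 1273 ± 42.6 and 1581 ± 54.9 FPKM (SD, n = 3 each). Among 13 tested epithelial markers, KRT18 and KRT8 rose and GRHL2 and DSP fell, and the call of DSP was lost in 5 of the 6 fits that left out a library. The calls of KRT18, KRT8 and DSP were lost after quantile normalization. Among 8 tested fibroblast markers, COL1A1, COL1A2 and THY1 rose and POSTN fell, each of them under 5 FPKM in every library. The calls of COL1A1, COL1A2 and THY1 were lost in 5, 3 and 5 of the 6 fits that left out a library. That of COL1A1 was also lost when its 2 features were summed. For both marker lists the background was 8.59% higher and 15.8% lower among all tested features. The most abundant markers were KRT19, KRT18 and KRT8 of the epithelial list and FN1, VIM and COL3A1 of the fibroblast list. Changes of a gene in such bulk samples cannot separate fewer cells of a type from less RNA per cell.

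The levels of the 10 genes spanned nearly 3 orders of magnitude. On the FPKM scale, which divides by exon length, the order of the mean level over the 6 libraries was B2M at 924, CD74 at 113, TAPBP at 55.4, TAP1 at 30.9, TAPBPL at 10.98, TAP2 at 9.59, ERAP1 at 6.09, NLRC5 at 4.52, BOLA-DRA at 1.06 and CIITA at 0.938 FPKM. B2M was thus above 99.5% of the tested features and CIITA above 9.7% of them. Neighbours in this order mostly kept apart in each library, but TAPBPL was below TAP2 in each control library and above it in each treated library, and the ranges of BOLA-DRA and CIITA overlapped in control cells. ERAP1 and TAPBPL overlapped in control cells as well.

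TAPBPL encodes a tapasin relative that edits the peptides of class I molecules outside the TAP loading complex. It stood at 6.88, 7.48 and 6.44 FPKM in control replicates 1, 2 and 3 and at 20.7, 12.4 and 12.0 FPKM in treated replicates 1, 2 and 3. Each treated library was above each control library, and treated replicate 1 was far above the other treated libraries. The log2 fold change was 1.06 (standard error 0.23, 95% interval 0.50 to 1.62, adjusted p = 0.0239 from limma, 0.0189 to 0.0785 across all fits). Without treated replicate 1 it was 0.80 and still called (adjusted p = 0.0189 from limma). The call was lost without control replicate 1, 2 or 3 (adjusted p = 0.0725, 0.0556 and 0.0785 from limma), with log2 fold changes of at least 1.01. VAMP1, the gene next to TAPBPL in the RefSeq gene order, was between 0.77 and 1.74 FPKM in all libraries and did not pass the test (adjusted p = 0.920 from limma).

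TAPBP encodes tapasin itself, the bridge between the TAP transporter and empty class I molecules. It was measured at 51.9, 53.3 and 54.5 FPKM without SQ0048 and 56.8, 54.5 and 61.7 FPKM with it. The groups just failed to overlap, at 54.46 against 54.53 FPKM, and the difference did not pass the test (log2 fold change 0.11, 95% interval -0.04 to 0.27, adjusted p = 0.237 from limma). Within a library, TAPBP was 7.55, 7.12 and 8.46 times as high as TAPBPL in control cells and 2.74, 4.41 and 5.16 times in treated cells. The ratios of the groups did not overlap (exact permutation test, two-sided, p = 0.1, the smallest that 3 libraries against 3 can give).

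TAP1 and TAP2, the subunits of the peptide transporter, differed in how steady they were. TAP1 stood at 25.4, 33.5 and 23.0 FPKM without SQ0048 and 32.7, 30.3 and 40.9 FPKM with it. The groups overlapped through control replicate 2, and the log2 fold change of 0.35 did not pass the test (95% interval -0.09 to 0.79, adjusted p = 0.213 from limma). The feature that holds TAP2 was at 9.83, 9.20 and 10.01 FPKM without SQ0048 against 9.59, 9.22 and 9.69 FPKM with it. All treated values lay within the range of the control values, and the interval of the log2 fold change was -0.18 to 0.13 (adjusted p = 0.797 from limma). TAP1 was 2.30 to 3.64 times as high as TAP2 in control libraries and 3.29 to 4.22 times in treated libraries, and these ranges overlapped. In the RefSeq gene order TAP1 lies between PSMB8 and PSMB9, which encode subunits of the immunoproteasome.

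B2M, the light chain shared by all class I molecules, was the most abundant of the 10 genes. It was at 736, 1069 and 694 FPKM without SQ0048 and 1146, 1118 and 780 FPKM with it. Control replicate 2 and treated replicate 3 lay inside the range of the other group, and no difference was detectable (log2 fold change 0.29, 95% interval -0.27 to 0.85, adjusted p = 0.396 from limma). The spread within a group, as the residual SD of the log2 values, was 0.32 for B2M against a median of 0.12 over the 7053 features whose mean reached 5 FPKM, and 83.4% of those features had a smaller one. ERAP1, the aminopeptidase, was far steadier at 6.31, 6.01 and 6.56 FPKM in untreated against 6.26, 5.70 and 5.71 FPKM in treated cells. Its groups overlapped through treated replicate 1, with an interval of -0.28 to 0.09 for the log2 fold change (adjusted p = 0.407 from limma). CAST, the gene next to ERAP1 in the RefSeq gene order, fell by 0.39 in log2 units (adjusted p = 0.00945 from limma).

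NLRC5, the class I transactivator, was at 4.06, 3.98 and 4.32 FPKM without SQ0048 and 5.14, 4.88 and 4.74 FPKM with it. Each treated library was above each control library, and the spread inside a group was small, with an SD of 0.178 and 0.203 FPKM. The log2 fold change of 0.25 (standard error 0.08, 95% interval 0.06 to 0.44) missed the adjusted threshold (adjusted p = 0.0625 from limma, 0.0189 to 0.208 across all fits). It passed when libraries were scaled by median-of-ratios size factors (log2 fold change 0.33) or quantile-normalized (0.38). Next to NLRC5 in the RefSeq gene order lie HERPUD1 and CPNE2. CPNE2 rose (log2 fold change 0.26, adjusted p = 0.0413 from limma). The study names a stranded kit and also another kit for the libraries, and whether the counting used strand is not known here.

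CD74 was the most abundant class II gene of the set. It stood at 73.2, 135 and 128 FPKM without SQ0048 and 94.98, 149 and 94.9 FPKM with it. The groups lay on top of each other, with means of 112 ± 34.0 and 113 ± 31.0 FPKM (SD, n = 3 each). The log2 fold change was 0.03 (standard error 0.30, adjusted p = 0.959 from limma, 0.482 to 0.972 across all fits), with a 95% interval from 0.608 to 1.71 on the fold scale. Leaving out control replicate 1, the lowest library, turned the log2 fold change to -0.26, and leaving out treated replicate 2, the highest, turned it to -0.19. CD74 had a residual SD of 0.44, above that of 88.3% of the 7053 features whose mean reached 5 FPKM.

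The DR alpha chain gene was expressed at about 1 FPKM. It was at 1.27, 1.09 and 0.950 FPKM without SQ0048 against 0.970, 1.10 and 0.990 FPKM with it. Treated values lay within the control range, and the interval of the log2 fold change was -0.52 to 0.32 (adjusted p = 0.714 from limma). Per exon length, CD74 was 57.6 to 135 times as high as the DR alpha gene in control libraries and 95.9 to 135 times in treated libraries. Other class II chains named in the table were low too. HLA-DMA, a chain of the peptide editor DM, was at 3.91 to 4.88 FPKM in untreated against 4.93 to 6.37 FPKM in treated cells (adjusted p = 0.144 from limma), and BOLA-DOA and HLA-DOB, chains of the DM inhibitor DO, did not exceed 0.20 FPKM in any library.

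CIITA was the gene that fell. It stood at 1.27, 1.11 and 1.49 FPKM without SQ0048 and had dropped to 0.700, 0.390 and 0.670 FPKM with it. Each treated library was below each control library, with the lowest value in treated replicate 2. The log2 fold change was -1.04 (standard error 0.26, 95% interval -1.70 to -0.39, adjusted p = 0.0391 from limma, 0.0298 to 0.108 across all fits), and with a pseudocount of 1 it was -0.53. The call was lost without control replicate 1, 2 or 3 (adjusted p = 0.102, 0.0700 and 0.108 from limma), without treated replicate 1 or 3 (limma's adjusted p = 0.0676 and 0.0729), with size factors (adjusted p = 0.0504 from limma) and after quantile normalization (adjusted p = 0.0741 from limma). The sign stayed negative in each of the 15 alternatives in which CIITA was tested. DEXI, the gene next to CIITA in the RefSeq gene order, moved the other way, from 3.78, 4.36 and 4.67 FPKM to 8.89, 7.89 and 6.79 FPKM (adjusted p = 0.00967 from limma).

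The transactivators NLRC5 and CIITA are relatives of the NLR family, each tied to a class of MHC genes. Per exon length, NLRC5 was 3.20, 3.59 and 2.90 times as high as CIITA in control libraries and 7.34, 12.5 and 7.07 times in treated libraries. The ratios did not overlap between the groups (exact permutation test, two-sided, p = 0.1, the smallest that 3 libraries against 3 can give). As NLRC5 was higher and CIITA lower in each treated library, this outcome was fixed and is no separate result. On the log2 scale the change of NLRC5 was 0.25 and that of CIITA -1.04.

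**Figure D2:**
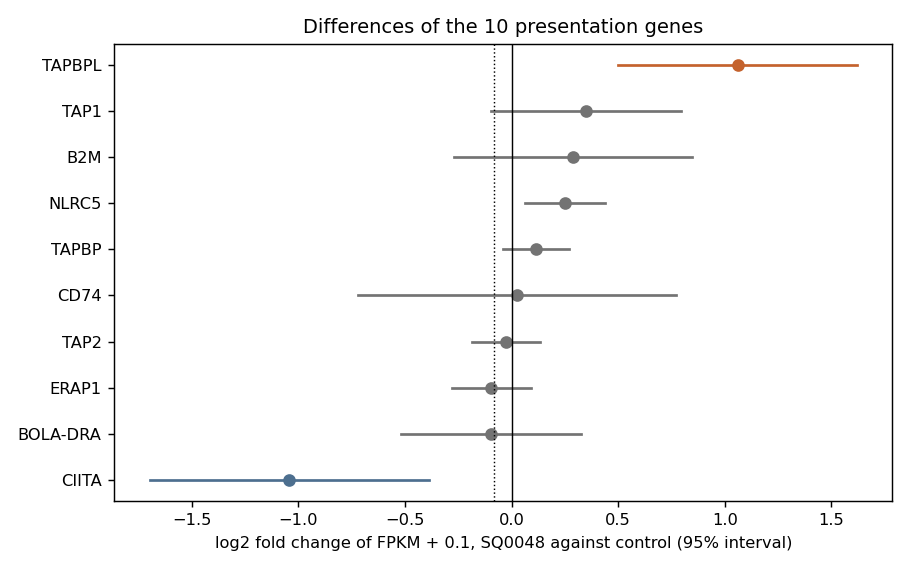
Log2 fold change of FPKM + 0.1 in SQ0048-treated against control cells for the 10 genes (points) with its 95% interval from limma (lines). Orange marks an adjusted p under 0.05 with a higher level, blue the same with a lower level and gray neither, and the dotted line is the median over all tested features at -0.08. TAPBPL lies at 1.06 and CIITA at -1.04, while the interval of CD74 reaches from -0.72 to 0.77.

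Cells of the immune system carry much more class II RNA than epithelial cells, so their markers were read beside CD74 and CIITA. Of 20 markers of antigen-presenting and blood cells, 12 were found in the table, 4 were tested, and their adjusted p from limma lay between 0.156 and 0.719. The FPKM of these 12 summed to 19.3 to 22.6 in control and 23.3 to 27.4 in treated libraries, of which AIF1, a calcium-binding protein of macrophages, gave 15.3 to 18.8 and 18.9 to 23.7. CD14, the lipopolysaccharide coreceptor of monocytes, was at 1.06 to 2.10 FPKM and CD83, a marker of mature dendritic cells, at 0.17 to 1.29 FPKM over all libraries. CSF1R of macrophages did not exceed 0.02 FPKM, CD3E of T cells 0.10 FPKM, CD79B of B cells 0.01 FPKM and lysozyme (LYZ) 0.03 FPKM, and CD79A was listed at 0.00 FPKM throughout. The part of such cells in the CD74 level was not tested.

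Of 4 features named or described as class I heavy chains, the partners of B2M, 3 were called higher in treated cells. Over all tested features this share was 8.59%. The feature that joins BOLA with JSP.1 was at 85.7, 77.9 and 80.3 FPKM without SQ0048 against 97.6, 95.6 and 111 FPKM with it (log2 fold change 0.32, adjusted p = 0.0353 from limma). A feature described as class I, A (BoLA) rose by 0.23 and another described as A-like by 0.47 in log2 units (adjusted p = 0.0405 and 0.0440 from limma). The non-classical gene BOLA-NC1 stood at 14.3, 13.7 and 13.7 against 16.9, 15.2 and 15.5 FPKM and missed the threshold (adjusted p = 0.0886 from limma). The groups did not overlap in any of these 4 features, each of them higher, against 17.4% of all tested features. The calls of the first 3 were lost after rescaling to TPM and in 5, 6 and 6 of the 6 fits that left out a library (adjusted p up to 0.104, 0.206 and 0.134 from limma across all fits). Class I genes are near-identical copies, and how their reads were shared out is not known here. Features of the KEGG antigen presentation pathway with neither a symbol nor a description as an MHC chain were left out of this count. Among these, ENSBTAG00000022590 was at 39.8, 69.7 and 40.3 against 43.3, 40.9 and 43.9 FPKM and was not called (adjusted p = 0.609 from limma). ENSBTAG00000038619 was called higher (log2 fold change 0.46, adjusted p = 0.0150 from limma). B2M was 6.99 to 13.7 times as high as the BOLA and JSP.1 feature, with ranges that overlapped between the groups. MR1, described as class I-related, was at 16.5 ± 0.136 FPKM in control and 17.1 ± 0.455 FPKM in treated cells (mean ± SD of 3 libraries). It was not called (adjusted p = 0.509 from limma).

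Among the other genes of the class I route, 4 of 19 tested features rose, the BOLA and JSP.1 feature among them, and 2 fell, against 8.59% and 15.8% of all tested features, with a median log2 fold change of 0.06 against -0.08. PSMB8 and PSMB9 of the immunoproteasome, which replace standard catalytic subunits, went from 50.1 ± 3.07 to 61.2 ± 2.95 and from 15.9 ± 0.188 to 19.6 ± 1.45 FPKM (mean ± SD of 3 libraries, limma's adjusted p = 0.0317 and 0.0320). Both calls were lost in TPM, and in 4 and 5 of the 6 fits that left out a library. FCGRT, the neonatal Fc receptor, which also pairs with B2M, rose by 0.35 on the log2 scale. UGGT1, the glucosyltransferase that senses misfolded glycoproteins, fell by 0.53, and LNPEP, an endosomal aminopeptidase used in cross-presentation, fell by 0.82. PDIA3, CALR and PSME1, the most abundant genes of this list, encode a disulfide isomerase and a lectin chaperone of class I folding and a proteasome activator, and were not called. The number that rose was 2, 2 and 1 without control replicate 1, 2 and 3, was 2 without treated replicate 1 or 3, and was 1 after rescaling to TPM. The calls of FCGRT, UGGT1 and LNPEP held in each fit that left out a library.

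For the class II route outside the set, 3 of 12 tested features rose and 1 fell, against the same 8.59% and 15.8%, with a median log2 fold change of 0.13. CTSD, a lysosomal aspartic protease, went from 180 ± 10.04 to 237 ± 8.53 FPKM (mean ± SD of 3 libraries, limma's adjusted p = 0.00891), a call lost after quantile normalization (0.00711 to 0.0704 across all fits). MIF, a cytokine that binds CD74 at the cell surface, was at 142, 150 and 155 FPKM without SQ0048 against 219, 212 and 190 FPKM with it (log2 fold change 0.47, adjusted p = 0.00954 from limma). CTSF, a cysteine protease that can cleave the invariant chain, rose by 0.40, a call that was lost without control replicate 1 or 3 or any treated replicate (adjusted p = 0.0372 from limma, 0.0211 to 0.112 across all fits). SPPL2A, the intramembrane protease that removes the last CD74 fragment, fell by 0.56 in log2 units (adjusted p = 0.0106 from limma). CTSS, the cathepsin best known for trimming the invariant chain, was at 23.8 to 29.1 FPKM in untreated against 20.2 to 23.0 FPKM in treated cells without a call (adjusted p = 0.0815 from limma). CD44, the signaling partner of CD74 and the most abundant gene of this list, was not called either. CXCR4, another partner of CD74, was listed at 0.08 and 0 FPKM in control replicate 1 and treated replicate 1 and at 3.70 to 9.60 FPKM in the other libraries.

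Of 15 tested features of genes that control MHC transcription, 2 were called higher and 3 lower, shares near the 8.59% and 15.8% of all tested features, with a median log2 fold change of 0.04. NFYB, a subunit of the factor that binds the Y box of MHC promoters, was at 5.92, 6.60 and 7.08 FPKM without SQ0048 against 13.1, 15.0 and 14.3 FPKM with it (log2 fold change 1.10, adjusted p = 0.00251 from limma). Its partners NFYA and NFYC were not called. PRDM1, a repressor known to silence CIITA in plasma cells, was at 0.580 to 0.680 FPKM in untreated cells and 1.36 ± 0.0656 FPKM (SD, n = 3) in treated cells (adjusted p = 0.0106 from limma). The interferon gamma route was represented by the kinase JAK2, which fell by 0.81, and the receptor chain IFNGR2, which fell by 0.18 in log2 units (adjusted p = 0.0201 and 0.0400 from limma). Of the 6 fits that left out a library, the call of JAK2 was lost in 4 and that of IFNGR2 in all 6. The number that fell was 1, 1 and 0 without control replicate 1, 2 and 3 and was 0, 1 and 0 without treated replicate 1, 2 and 3, while the calls of NFYB and PRDM1 held in each of these fits. Without treated replicate 3, in which the receptor chain IFNGR1 was at 7.36 against 19.5 and 22.2 FPKM, 4 rose in place of 2. IRF1, an interferon-induced activator of class I genes, and JAK1 were not called. The RFX subunits RFX5, RFXAP and RFXANK, which bind the X box, were not called either.

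**Figure D3:**
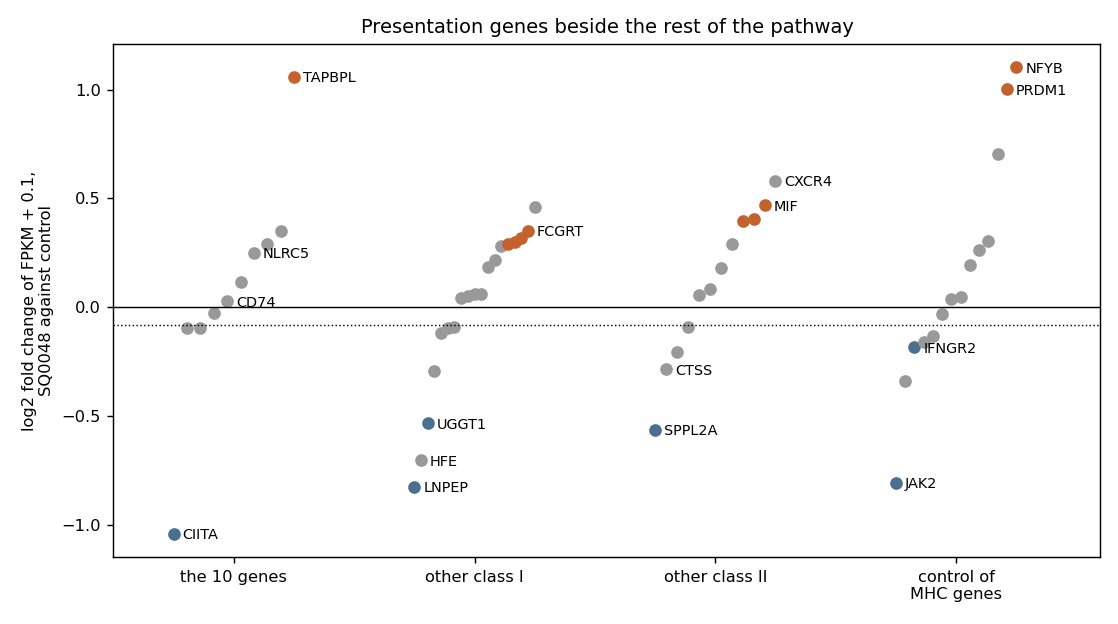
Log2 fold change of FPKM + 0.1 in SQ0048-treated against control cells (vertical axis) for the tested features of the 10 genes and of the other class I, class II and control genes (columns), with 1 control gene not shown, ordered by size within a column. Orange marks features that rose, blue features that fell and gray those with neither call, and the dotted line is the median over all tested features. TAPBPL and CIITA lie at 1.06 and -1.04, outside the range of 0.58 to -0.82 of the class I and class II genes outside the set.

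The annotation in the table itself gave another view of the pathway. It assigns 49 features to the KEGG pathway of antigen processing and presentation, of which 39 were tested. Of these, 10 rose, against 8.59% of all tested features, and the other 29 were not called, with a median log2 fold change of 0.18. B2M, CD74, TAP1, TAP2, TAPBP and BOLA-DRA are among them, as are several of the genes described above. KEGG counts stress proteins to this pathway. A feature described as Hsp70 1A was listed at 0 throughout the control group, whereas the treated replicates held 1144, 1237 and 2172 FPKM, and HSP90AA1, a cytosolic chaperone, was at 273, 263 and 284 FPKM against 480, 570 and 497 FPKM. The log2 fold change was 1.42 for ENSBTAG00000013162, which has no symbol in the table, 1.10 for NFYB and 0.91 for HSP90AA1. The others that rose were CTSL2 (a cathepsin L), the BOLA and JSP.1, BoLA and A-like features and 2 more features without a symbol. The number that rose was 5 without control replicate 1, 2 or 3 or treated replicate 1, 6 without treated replicate 3, and 5 after rescaling to TPM.

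**Figure D4:**
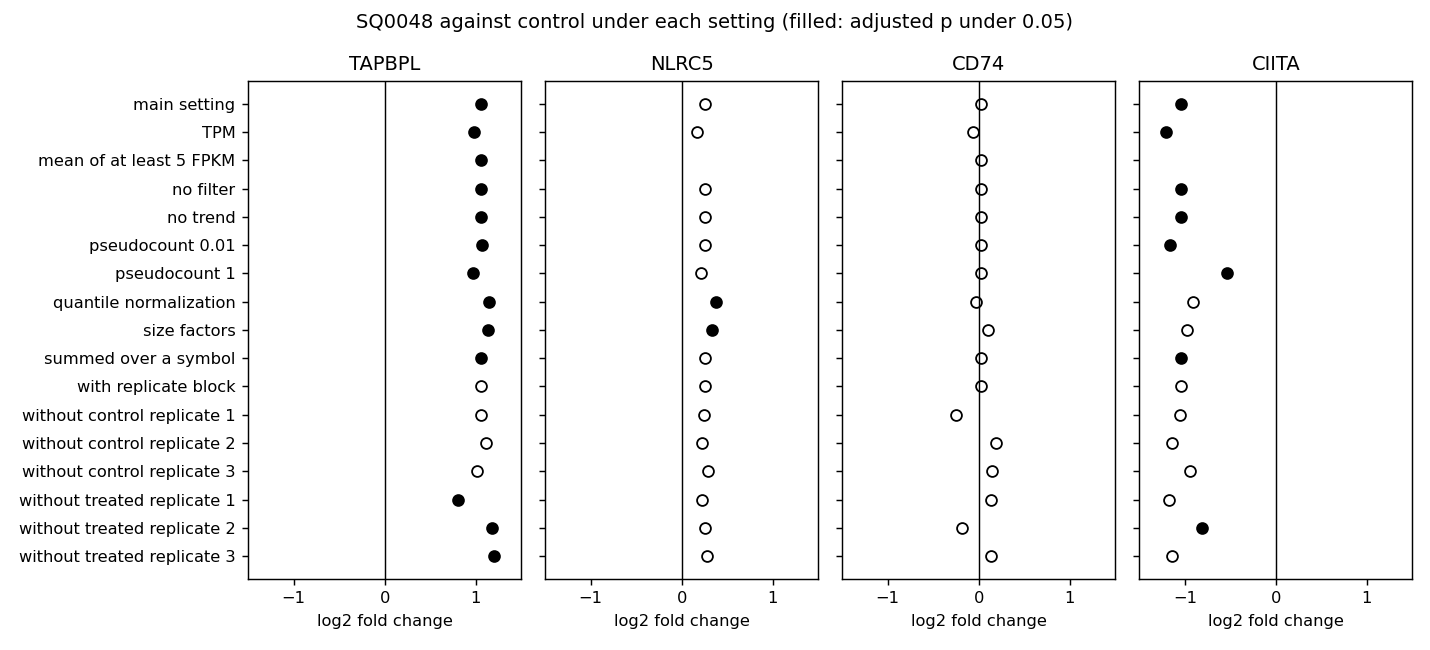
Log2 fold change of TAPBPL, NLRC5, CD74 and CIITA (horizontal axes) under the main setting and each alternative (rows), with filled points for an adjusted p under 0.05 from limma and open points above it. CIITA and NLRC5 were not tested where the mean had to reach 5 FPKM. TAPBPL stays at 0.80 or above, CIITA between -1.21 and -0.53, and CD74 lies on either side of 0.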

How the data were processed

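The deposited table holds FPKM values rounded to 2 decimals. The paper names Cutadapt for trimming reads, Hisat for aligning them and Cufflinks for measuring transcripts. In the submitters' processing notes, HISAT2 2.0, StringTie 1.3.0 and Bowtie 0.12.2 are listed with the build ARS-UCD1.2. Of the 18014 features, 14119 carry identifiers of the StringTie kind. For the libraries the study names both a TruSeq stranded mRNA kit and an NEB Next Ultra RNA kit. The study gives mean read numbers per group, while the depth of each library and the strand setting of the counting are not given in the sources used here. Columns of fold changes and p-values from the authors' own comparison were not used.

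Groups were taken from the sample labels. Features whose mean reached 0.5 FPKM were tested as log2(FPKM + 0.1), treated against control, with limma 3.58.1 in R 4.3.3 (mean-variance trend, Benjamini-Hochberg adjustment over 13144 features). Fold changes are on this scale and understate the change of low genes, and the 95% intervals are not adjusted for the number of features. Ratios between genes were compared by two-sided exact permutation tests (scipy 1.17.1), whose smallest p with 3 libraries against 3 is 0.1. The fits were tested on simulated data. The 10 genes and all lists were chosen with earlier results of these data known. Named genes were the 10 genes, each called gene of a pathway list (the 4 highest and 4 lowest where more than 8 were called), the 3 most abundant of each list, called cell markers, KRT18 and all MHC chain genes with a name or description. The neighbouring genes, CXCR4, IFNGR1, CTSS, the NFY and RFX subunits and some marker genes at or near 0 were named after their values were seen. Neighbouring genes come from the RefSeq gene order of another assembly, used for order only. The 16 alternatives changed the scaling, the pseudocount, the filter, the trend, the summing over a symbol, the replicate block or the libraries included. Of the genes that control MHC transcription, 1 called gene is counted but not reported here.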

Additional observations from a re-analysis of the deposited data

How the results depend on the processing

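The depth of each library is not known here, and 3 libraries a group limit what could be detected. Of the 10 genes, the number that rose was 2 after quantile normalization, 2 with size factors and 0 to 1 when a library was left out, and the number that fell was 0 at a mean of at least 5 FPKM (CIITA was not tested there), 0 after quantile normalization, 0 with size factors and 0 to 1 when a library was left out. The log2 fold change of CD74 turned to -0.063 in TPM, -0.034 after quantile normalization, -0.26 without control replicate 1 and -0.19 without treated replicate 2, and lay between -0.26 and 0.19 when a library was left out. That of TAP2 turned to 0.073 after quantile normalization and 0.051 with size factors, that of ERAP1 to 0.023 after quantile normalization, and that of BOLA-DRA to 0.044 after quantile normalization and 0.0010 without control replicate 1, so no direction is given for these 4 genes. Of the other class I genes, 1 rose in TPM, 2 without the trend and 1 to 3 when a library was left out. Of the genes that control MHC transcription, 1 rose at a mean of at least 5 FPKM and 2 to 4 when a library was left out, while 1 fell without the trend, 1 with size factors and 0 to 1 when a library was left out. Of the KEGG features, 5 rose in TPM, 6 without the trend and 5 to 8 when a library was left out. Over all features, 1348 fell at a mean of at least 5 FPKM, and leaving out a library gave 550 to 954 higher and 1112 to 2012 lower. The lower share of all calls was 64.7%, against 77.7% in TPM, 54.5% after quantile normalization and 51.8% with size factors. Except where a filter or fewer libraries changed what was tested, the cause was not tested.

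Libraries of the same number did not deviate together (correlations of -0.012, 0.001 and 0.010), and not every library correlated best with its own number. No pairing by number was thus seen, but such correlations cannot tell whether libraries of a number were handled together. A fit with the replicate block called 0 of the 10 genes higher and 0 lower (adjusted p = 0.0636 for TAPBPL and 0.0742 for CIITA from limma), 0 higher and 1 lower of the other class I genes, 1 higher and 0 lower of the class II genes, 1 higher and 0 lower of the genes that control MHC transcription, 4 higher of the KEGG features, and 320 higher and 527 lower of all features, against 1129 and 2072 without it.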
